A study of Rhodotorula toruloides with 36 samples.

Results

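Single-exon genes are genes whose messenger RNA is annotated as 1 uninterrupted exon, so that no intron has to be removed before the message is translated. In the gene catalogue of the yeast Rhodotorula toruloides IFO0880 they were taken as the mRNAs with exactly 1 exon and a summed coding length over 300 bp. This gave 378 of the 8490 catalogue genes, or 4.45%. They were described beside the 7868 multi-exon genes, which had 2 or more exons and the same minimum of coding length. Each of the 378 also had a single coding segment, and 331 of them had enough counts to be tested for changes.

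Introns are cut out of the primary transcript by the spliceosome, and proteins left on the message at the splice junctions assist its export and quality control. A single-exon transcript reaches the cytoplasm without that step. R. toruloides is a red basidiomycete yeast known for storing triacylglycerol in lipid droplets when nitrogen is short and carbon is still at hand. Acetate enters metabolism as acetyl-CoA, the building block of fatty acids.

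The 36 libraries formed 12 groups of 3, all of strain IFO0880. Low-nitrogen cultures had 0.1 g/L ammonium sulfate, and the design text also lists 0.75 g/L yeast extract for them. For high nitrogen the treatment protocol gives 5 g/L ammonium sulfate, the design text gives 10 g/L, and neither gives a yeast extract level, so a difference named after nitrogen may include one in yeast extract. Each nitrogen level was run with 2 g/L acetate and without it, and the sampling times were 48, 64 and 88 h. The cultures came from 3 colonies grown in D-glucose medium, each pellet being divided over 4 flasks, and the series title names acetate and xylose use. The labels do not say which replicate number belongs to which colony, or whether the 3 times share flasks, so p-values measure the spread between these libraries. The catalogue gives mRNA and protein numbers but no names or functions, so no role could be given to a member and the strain could not be checked against marker genes. Members are named by number and by position in assembly version 4 of IFO0880.

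The libraries held between 10173719 and 63311529 counts, of which 136662 to 946552 lay on single-exon genes. In 4 groups the chi-square per degree of freedom of 1 library against both others was over 3 times that between those others. These were replicate 3 of high nitrogen with acetate at 48 h, replicate 1 of low nitrogen without acetate at 64 h, and replicate 2 of high nitrogen without acetate at 64 h and at 88 h. All were kept, and for some of the named genes the value without such a library is given beside the result. Levels are in CPM, counts scaled to the same TMM-adjusted library size. They are relative to the other mRNAs of a library, so less of a message per cell and fewer cells holding it cannot be told apart.

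Single-exon genes were short genes with annotated untranslated regions (UTRs). Their coding length had a median of 672 bp (quartiles 495 and 1048.5 bp, longest 2913 bp), against 1281 bp in multi-exon genes. The exon itself had a median of 1018 bp, against 1488 bp for the summed exons of multi-exon genes. UTRs were annotated on both sides in 83.9% of single-exon genes and in 61.5% of multi-exon genes. Where any UTR was annotated, its summed length had a median of 344.5 bp in single-exon and 278 bp in multi-exon genes. Exon overlap with another catalogue gene was found in 145 single-exon genes, or 38.4%, against 23.5% of multi-exon genes. The overlap lay on the opposite strand in 84 and on the same strand in 73. The libraries were made with a stranded kit, but the strand setting of the counting is not given in the sources used here, so reads in such overlaps cannot be told apart with certainty.

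The genes were scattered over 19 of the 21 scaffolds that carry genes. Of them, 328 had no single-exon gene next to them in the catalogue, 22 pairs were direct neighbours, and 2 runs held 3 members each. The run of mRNA_7864, mRNA_7865 and mRNA_7866 lies on scaffold 8 between 1258111 and 1261789. The run of mRNA_8462, mRNA_8463 and mRNA_8464 lies on scaffold 9 between 1292074 and 1296690. In the run on scaffold 9 the mean over the 12 groups was 153 CPM per kb of exon for mRNA_8463 and 2.93 and 2.40 CPM per kb for mRNA_8462 and mRNA_8464 on its sides. The small scaffold 20 held 3 members among 5 genes. The members nearest to the length minimum were mRNA_6963 with 303 bp, mRNA_3269 with 309 bp and mRNA_4326 with 309 bp, at mean levels of 0.0376, 0.890 and 2.85 CPM. The nearest single-exon mRNAs below it were mRNA_772, mRNA_5836 and mRNA_6161, each with 294 bp, at 3.30, 0.0465 and 0.193 CPM.

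Most single-exon genes were at low levels. Per kb of exon, the median of the means over the 12 groups was 5.98 CPM (quartiles 0.874 and 27.7 over 378 genes). In multi-exon genes it was 31.4 CPM per kb (quartiles 14.3 and 67.9), a ratio of 5.25. Genes with 2 exons had a median of 19.2 CPM per kb, those with 3 to 5 exons 28.9 and those with 6 to 10 exons 36.0. Below 1 CPM per kb lay 26.5% of single-exon and 3.55% of multi-exon genes. At 100 CPM per kb or more were 27 single-exon genes, or 7.14%, against 16.5% of multi-exon genes.

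**Figure D1:**
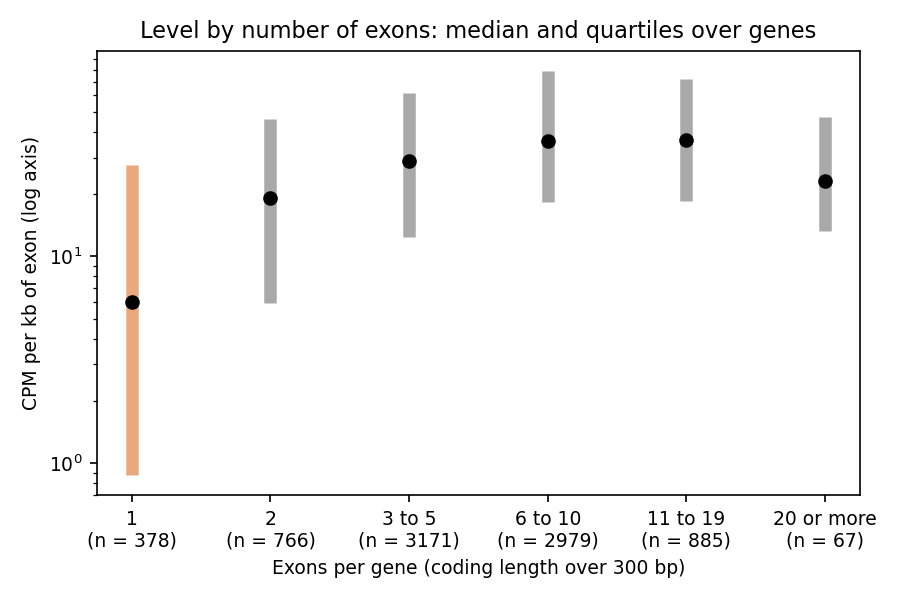
Level of genes by number of exons, for genes with a coding length over 300 bp. Points are medians and bars the quartiles over genes of the mean over 12 groups, in CPM per kb of exon on a log axis; single-exon genes (n = 378) have a median of 5.98 CPM per kb and genes with 6 to 10 exons one of 36.0.

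The 47 single-exon genes that were not tested had mean levels of at most 0.155 CPM, and 1 of them had no count in any library. They made up 12.4% of single-exon genes, against 1.16% of multi-exon genes. Of the 331 tested members, 204 were in the lowest quartile of level of all tested genes (below 17.5 CPM), 53 in the second, 51 in the third and 23 in the highest. By level per kb of exon these numbers were 192, 55, 48 and 36. Replicates scattered more in the lowest quartile. There the median coefficient of variation over the 3 libraries of a group was 17.9% for single-exon and 13.1% for multi-exon genes. In quartiles 2 and 3 it was 7.44% and 5.43% for single-exon and 6.99% and 5.92% for multi-exon genes.

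A few members carried much of the signal. Over all libraries 24 members held 50% of the single-exon counts, 118 held 90%, and the 10 most abundant held 33.7%. The highest level per kb was that of mRNA_1113 (protein 9481, scaffold 10, 434407 to 435317, plus strand, coding length 651 bp), with a mean of 1185 CPM per kb over the 12 groups. It was followed by mRNA_4359 (protein 12727, scaffold 3, 1 to 902, plus strand), whose annotation starts at the first base of its scaffold, with 1016 CPM per kb. The next were mRNA_3152 with 378, mRNA_7187 with 372 and mRNA_3139 with 371 CPM per kb. None of these 5 overlaps another catalogue gene.

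These abundant members differed in how steady they were. mRNA_3152 (protein 11520, scaffold 16, 438729 to 439357, minus strand) had group means between 179 and 294 CPM, a 1.64-fold range. mRNA_1113 had group means between 1.21 and 2490 CPM, the widest range among members with a mean of at least 10 CPM. The second-widest was that of mRNA_1415 (protein 9783, scaffold 11, 220311 to 221980, minus strand), with group means from 0.569 to 541 CPM. The narrowest were mRNA_5680, from 42.1 to 58.1 CPM, and mRNA_5690, from 59.4 to 84.0 CPM, which both overlap neighbours. Over all 331 tested members the median range over the 12 groups was 1.80 on the log2 scale, and 42.3% spanned 4-fold or more. In multi-exon genes these values were 1.70 and 37.9%.

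Single-exon genes held a small share of the counts, which differed between media and was smaller with acetate. Over the 36 libraries the share lay between 0.928% and 1.54%. In high nitrogen with acetate the 3 libraries had 0.973%, 0.948% and 0.928% at 48 h. They had 1.03%, 1.00% and 1.04% at 64 h, and 1.08%, 1.06% and 1.05% at 88 h. In low nitrogen with acetate they had 1.48%, 1.48% and 1.46% at 88 h. The mean share with acetate was lower than without it in all 6 comparisons, with no overlap between libraries. The gap was widest in high nitrogen at 88 h, with 1.06% ± 0.0139 against 1.43% ± 0.0617 (mean ± SD, n = 3), and narrowest in low nitrogen at 88 h, with 1.47% ± 0.00848 against 1.52% ± 0.0220.

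The share was also larger at 88 h than at 48 h in all 4 media without overlap between libraries. In low nitrogen with acetate it was 1.17% ± 0.0119 at 48 h and 1.47% ± 0.00848 at 88 h. The share was higher in low than in high nitrogen without overlap in 5 of 6 comparisons, but this rested largely on mRNA_1113. That gene held between 0.0110% and 18.3% of the single-exon counts of a library. Without it, low-nitrogen libraries stood above high-nitrogen ones only with acetate at 64 h and 88 h. In the comparison without acetate at 88 h they then lay below, with means of 1.34% against 1.42%. The order with acetate and with time was the same without mRNA_1113. No other single member was left out. The abundant mRNA_4359 and mRNA_1685 fell with acetate in low nitrogen at 48 h, and their part in the lower share there was not tested. No test was made on these shares, since the members were chosen with results of these data known.

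**Figure D2:**
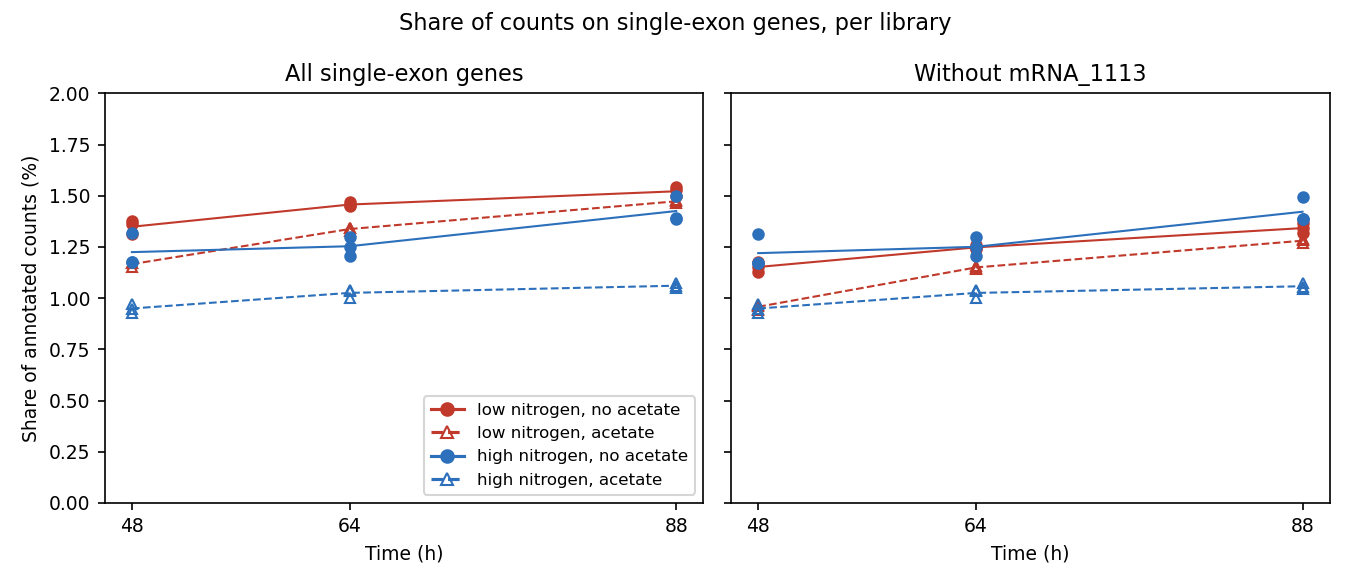
Share of annotated counts on single-exon genes in each of the 36 libraries by time, with all 378 genes (left) and without mRNA_1113 (right). Points are libraries, lines join group means, red is low and blue high nitrogen, filled points without and open triangles with acetate; the libraries of high nitrogen with acetate are lowest at each time on the left, between 0.928% and 1.08%.

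Low nitrogen raised a larger part of the tested single-exon genes than of all tested genes, with the largest shares in the presence of acetate. At 64 h with acetate, 113 of 331 tested members were at least 2-fold higher in low nitrogen and 44 at least 2-fold lower (edgeR, adjusted p below 0.05). That is 34.1% and 13.3%, where 17.4% and 14.1% of all 8314 tested genes were called. The median log2 fold change was 0.49 over the tested members and 0.02 over all tested genes. At 88 h with acetate 107 members were higher and 51 lower, 32.3% and 15.4%, against 16.7% and 17.5% of all genes. At 48 h with acetate 54 were higher and 46 lower, 16.3% and 13.9%, against 10.3% and 12.8%.

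Without acetate the shares of higher calls lay nearer to those of all genes, and the shares of lower calls lay further from them, above at 48 h and below at 64 and 88 h. At 64 h 76 members were higher and 40 lower, 23.0% and 12.1%, against 13.1% and 14.2% of all genes. At 88 h 65 were higher and 57 lower, 19.6% and 17.2%, against 13.8% and 19.7%. At 48 h 27 were higher and 40 lower, 8.16% and 12.1%, against 6.62% and 7.37%. Genes with 2 exons stood between single-exon genes and all genes in the comparisons with acetate at 64 and 88 h, with 28.5% and 27.7% higher.

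The split of higher and lower calls depended on the scaling of the libraries. Scaling by library totals alone moved the median log2 fold change of all tested genes by −0.54 to 0.46, depending on the comparison. With it, 87 members were higher and 61 lower at 64 h with acetate. Without acetate the balance turned over, to 48 higher and 73 lower at 64 h and to 41 higher and 91 lower at 88 h. The median of the members without acetate then changed from 0.16 to −0.25 at 64 h and from 0.08 to −0.46 at 88 h. All genes shifted as well, to 7.46% higher and 25.0% lower at 64 h and to 6.27% and 33.5% at 88 h. At 48 h without acetate the split became 21 higher and 50 lower.

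**Figure D3:**
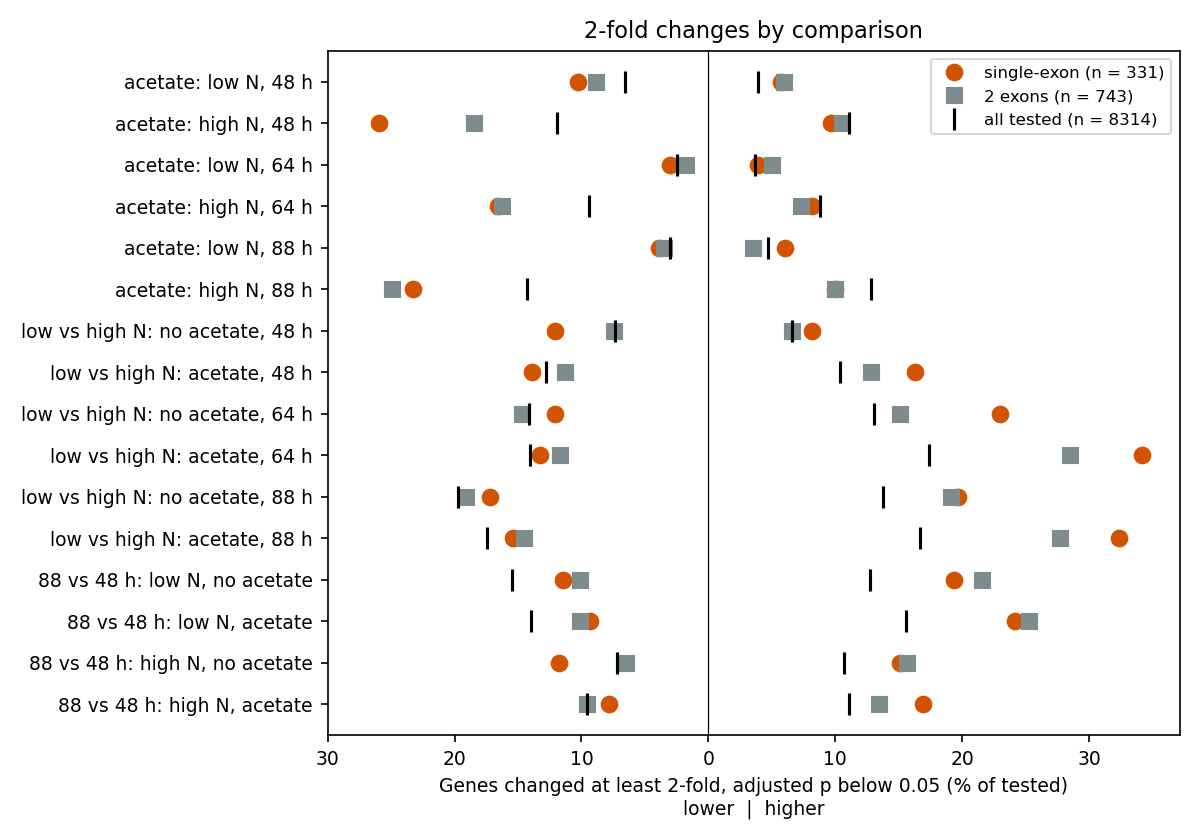
Share of tested genes that changed at least 2-fold with adjusted p below 0.05 in each pairwise comparison, lower calls to the left and higher calls to the right of 0, in percent. Circles are single-exon genes (n = 331), squares genes with 2 exons (n = 743) and black bars all tested genes (n = 8314); single-exon genes lie furthest beyond the black bars for low against high nitrogen with acetate at 64 h (34.1% against 17.4% higher) and at 88 h.

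mRNA_1113 had the highest or second-highest rise in low nitrogen in all 6 comparisons among the members that met the naming rule. That rule asks for no overlap between libraries, a higher group averaging 10 CPM or more, and adjusted p below 0.05. At 48 h with acetate its level was 1895, 1849 and 1904 CPM in low nitrogen and 1.20, 1.30 and 1.15 CPM in high nitrogen. The groups are far apart and the 3 libraries of each are close together. The log2 fold change was 10.59 (adjusted p = 3.74e-20, SE 0.38). Without acetate at 48 h it was 2137, 1763 and 1770 CPM in low against 45.1, 43.9 and 40.6 CPM in high nitrogen, a log2 fold change of 5.45 (adjusted p = 1.27e-15, SE 0.29). All 18 low-nitrogen libraries lay between 1763 and 2699 CPM. The high-nitrogen level varied with medium and time instead, from 1.21 ± 0.0752 CPM with acetate at 48 h to 43.2 ± 2.35 CPM without it.

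Other members were also higher in low nitrogen. mRNA_7008 (protein 15376, scaffold 7, 661061 to 661645, plus strand) had, at 64 h without acetate, 224, 183 and 183 CPM in low nitrogen and 1.58, 9.07 and 3.47 CPM in high nitrogen. The low-nitrogen libraries are close together and do not overlap with the others. The log2 fold change was 5.43 (adjusted p = 2.08e-13, SE 0.38), and 6.25 without replicate 2 of the high-nitrogen group. Its low-nitrogen level without acetate was 50.8 ± 4.14 CPM at 48 h and 83.6 ± 13.5 CPM at 88 h, so that 64 h was the highest of the 3 times.

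The neighbours mRNA_1684 and mRNA_1685 (proteins 10052 and 10053, scaffold 11, 883850 to 884776 and 884902 to 886857, both minus strand) were at least 2-fold higher in low nitrogen in all 6 comparisons. At 88 h with acetate mRNA_1684 had 95.0, 89.6 and 104 CPM in low against 0.785, 0.397 and 0.522 CPM in high nitrogen, a log2 fold change of 7.53 (adjusted p = 1.11e-16, SE 0.38). At 64 h with acetate it had 31.1 ± 8.50 CPM in low against 0.179 ± 0.0401 CPM in high nitrogen, where the 3 libraries held 14 counts in all. With acetate at 88 h mRNA_1685 had 463 ± 27.6 CPM in low nitrogen, against 84.1 ± 8.65 CPM in high. The pair does not overlap.

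mRNA_1415 had the lowest or second-lowest log2 fold change in all 6 nitrogen comparisons. At 88 h without acetate its level was 0.485, 0.605 and 0.755 CPM in low nitrogen and 369, 738 and 515 CPM in high nitrogen. The high-nitrogen libraries scatter among themselves but lie far above the others. The log2 fold change was −9.75 (adjusted p = 5.37e-18, SE 0.43). At 48 h without acetate the values were 1.87 ± 0.259 CPM in low against 36.1 ± 1.88 CPM in high nitrogen (log2 fold change −4.28, adjusted p = 1.69e-11). At 64 h without acetate the log2 fold change was −7.01, and −6.36 without replicate 2 of high nitrogen.

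mRNA_2629 (protein 10997, scaffold 14, 628276 to 629500, minus strand) was near the floor in low nitrogen. With acetate at 88 h it had 0.225, 0.146 and 0.316 CPM in low against 25.3, 24.5 and 31.9 CPM in high nitrogen. The groups do not overlap, and the log2 fold change was −6.91 (adjusted p = 4.02e-14, SE 0.46). It overlaps mRNA_2628 and mRNA_2630 on the opposite strand by 124 and 49 bp, which changed by −0.52 and −0.70 in the same comparison. With acetate, the other members that met the naming rule with the largest falls in low nitrogen were mRNA_3788 at 48 h and mRNA_1597 at 64 h. Their log2 fold changes were −6.97 and −5.96. Without acetate they were mRNA_1505 at 48 h and mRNA_4668 at 88 h, at −2.08 and −5.07. Of these, mRNA_1597 shares 244 bp with mRNA_1596 on the opposite strand, and mRNA_1505 shares 299 and 32 bp with its same-strand neighbours mRNA_1504 and mRNA_1506. mRNA_3788 overlaps mRNA_3787 on the same strand and mRNA_3789 on the opposite strand, which changed by −1.95 and −0.76 in its comparison.

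Acetate lowered more tested single-exon genes in high nitrogen than it raised. At 48 h in high nitrogen 86 of 331 were at least 2-fold lower with acetate and 32 at least 2-fold higher, 26.0% and 9.67%, against 11.9% and 11.0% of all tested genes. The median log2 fold change was −0.28 over the tested members and −0.01 over all tested genes. At 64 h 55 were lower and 27 higher, 16.6% and 8.16%, against 9.43% and 8.78% of all genes. At 88 h 77 were lower and 33 higher, 23.3% and 9.97%, against 14.3% and 12.8% of all genes. Genes with 2 exons had 18.4%, 16.3% and 24.9% lower at the 3 times, which at 88 h was more than the single-exon share.

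In low nitrogen fewer members were called in either direction. At 48 h 34 were lower and 19 higher, 10.3% and 5.74%, against 6.60% and 3.92% of all tested genes. At 64 h 10 were lower and 13 higher, 3.02% and 3.93%, against 2.50% and 3.67%. At 88 h 13 were lower and 20 higher, 3.93% and 6.04%, against 3.03% and 4.73%. With library totals alone the split in low nitrogen at 64 h turned to 16 lower and 9 higher. In high nitrogen it widened to 81 lower and 22 higher at 64 h and to 116 lower and 19 higher at 88 h, where 27.1% of all genes were then called lower.

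The strongest rise with acetate was that of mRNA_3788 (protein 12156, scaffold 2, 583072 to 584306, plus strand). In high nitrogen at 48 h it had 236, 232 and 211 CPM with acetate and 1.93, 1.60 and 1.73 CPM without. The libraries with acetate stand close together and far above the others. The log2 fold change was 7.01 (adjusted p = 1.61e-19, SE 0.26). At 64 h it was 5.85, with 302, 229 and 330 CPM against 3.42, 7.47 and 4.30 CPM, and at 88 h 2.29, with 65.6 ± 6.67 against 13.4 ± 2.52 CPM. In low nitrogen the gene had 1.83 ± 0.553 CPM with and 1.02 ± 0.241 CPM without acetate at 48 h. At 64 h it rose there to 58.1 ± 16.8 from 4.28 ± 0.213 CPM. It shares 83 bp with mRNA_3787 on the same strand and 158 bp with mRNA_3789 on the opposite strand, whose log2 fold changes in high nitrogen at 48 h were 0.98 and −0.42.

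Further members with large rises in high nitrogen differed in the time of their peak. mRNA_8354 (protein 16722, scaffold 9, 1015400 to 1016161, minus strand) had 305, 238 and 76.6 CPM with acetate at 48 h and 9.42, 9.97 and 10.9 CPM without it. Replicate 3 with acetate is the library that stands apart, and the groups do not overlap (log2 fold change 4.35, adjusted p = 8.84e-09, SE 0.50). This gene shares 108 bp with mRNA_8353 on the opposite strand, which changed by 1.36. mRNA_1597 led with mRNA_3788 at 64 h, with 16.7, 7.21 and 13.3 CPM against 1.35, 0.667 and 1.13 CPM. mRNA_1912 (protein 10280, scaffold 12, 500203 to 502614, minus strand) rose at 88 h, with 398, 389 and 408 CPM against 103, 63.8 and 88.6 CPM (log2 fold change 2.23, adjusted p = 2.56e-11, SE 0.19).

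Among the falls in high nitrogen, mRNA_1113 had 1.20, 1.30 and 1.15 CPM with and 45.1, 43.9 and 40.6 CPM without acetate at 48 h, a log2 fold change of −5.14 (adjusted p = 2.74e-14, SE 0.33). At 64 h it was −3.41, and at 88 h 28.2 ± 2.66 against 26.6 ± 8.67 CPM, which did not pass the test (adjusted p = 0.767). mRNA_6192 fell at 48 h from 12.5 ± 0.626 to 0.489 ± 0.382 CPM, with replicate 3 at 0.927 CPM and the other 2 libraries with acetate at 0.319 and 0.221 CPM. Its log2 fold change of −4.69 became −5.53 without that replicate. The gene shares 117 bp with mRNA_6193 on the opposite strand, which changed by −2.13 in the same comparison. mRNA_1684 fell at 64 h from 11.5, 4.75 and 14.2 CPM to 0.134, 0.212 and 0.191 CPM (log2 fold change −5.91, adjusted p = 4.47e-11, SE 0.50). At 88 h the lowest log2 fold changes were those of mRNA_1774 and mRNA_4668, at −3.20 and −3.07.

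In low nitrogen, among members that met the naming rule, the deepest fall with acetate was that of mRNA_1685. It fell at 48 h from 381, 451 and 408 CPM to 41.2, 54.9 and 45.0 CPM, a log2 fold change of −3.13 (adjusted p = 9.51e-15, SE 0.18). The abundant mRNA_4359 fell in the same comparison from 906, 1012 and 756 CPM to 141, 149 and 134 CPM, a log2 fold change of −2.66 (adjusted p = 4.79e-11, SE 0.22). Neither pair of groups overlaps. The highest rise was that of mRNA_3788 at 64 h, with the levels given above and a log2 fold change of 3.74 (edgeR, adjusted p = 1.34e-13). At 48 h mRNA_2467 and mRNA_5381 led (2.08 and 1.66), and at 88 h mRNA_8008 and mRNA_6714 (2.44 and 2.43). Second at 64 h, mRNA_504 had 89.9, 24.4 and 19.6 CPM with and 19.3, 16.9 and 12.1 CPM without acetate. Its log2 fold change of 1.41 (adjusted p = 0.000704) rests on replicate 1 of the acetate group, without which it was 0.46 (adjusted p = 0.0631).

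**Figure D4:**
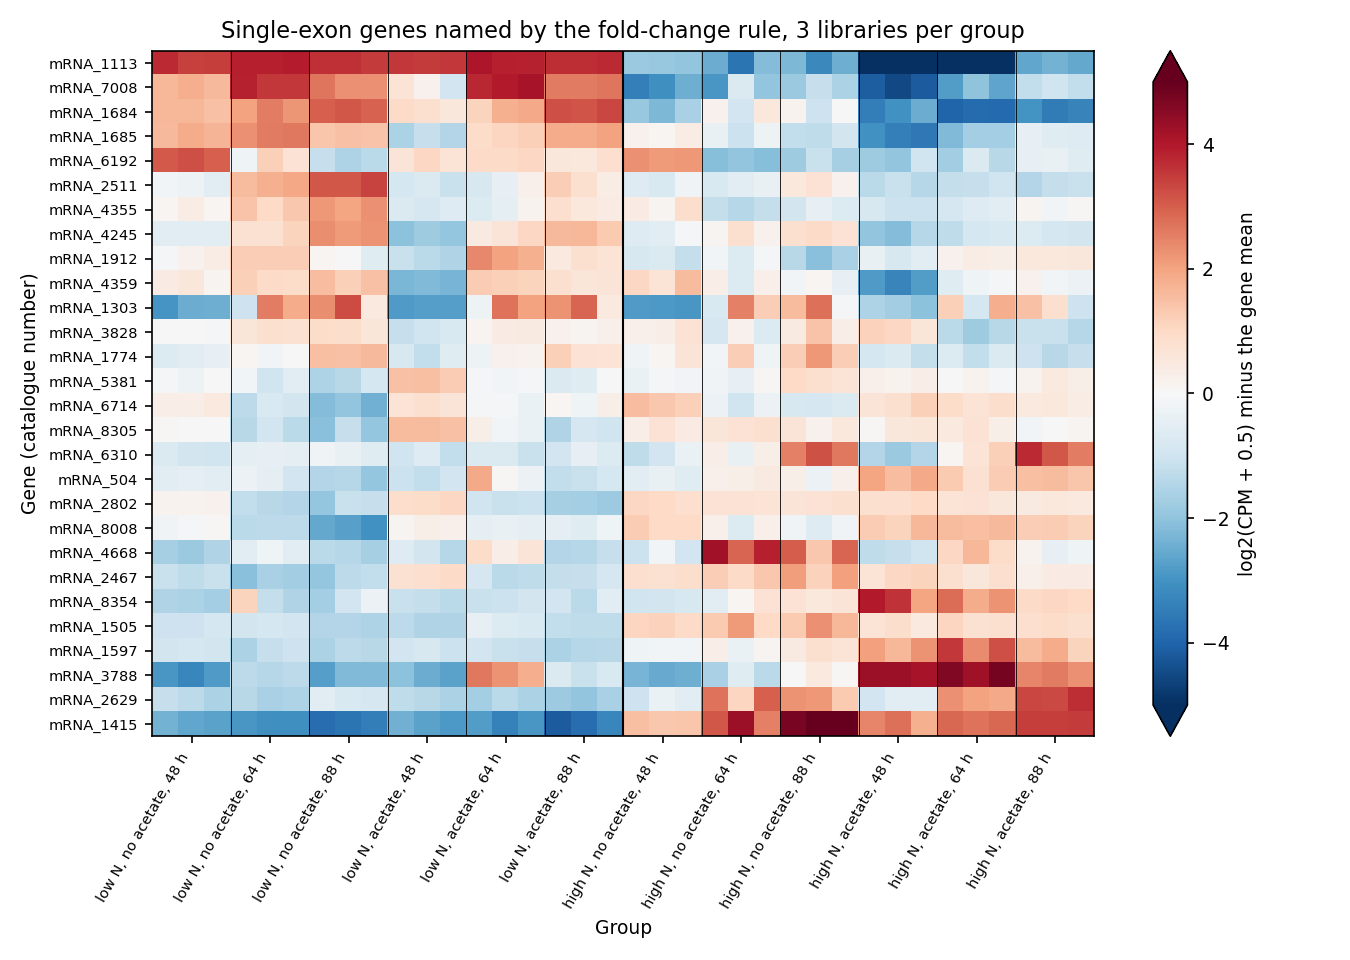
Levels in each of the 36 libraries of the 28 single-exon genes that the naming rule picked for their log2 fold changes. Values are log2(CPM + 0.5) minus the mean of the gene, with colours held at −5 and 5. Columns are the 3 libraries of each of the 12 groups and rows are ordered by the difference between low and high nitrogen; mRNA_1113 is at the top and mRNA_1415 at the bottom, and mRNA_3788 is high in the groups of high nitrogen with acetate.

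The acetate effect itself differed between the nitrogen media for many members. The difference, low minus high nitrogen, was at least 2-fold upward in 53 and downward in 29 of 331 tested members at 48 h, 16.0% and 8.76%, against 9.53% and 10.8% of all tested genes. At 64 h it was 57 and 21 members, 17.2% and 6.34%, against 9.73% and 8.18% of all genes. At 88 h it was 66 and 23 members, 19.9% and 6.95%, against 14.4% and 11.8%. Genes with 2 exons had 11.6%, 17.5% and 21.4% upward at 48, 64 and 88 h. At 64 and 88 h this was more than the single-exon share. Library totals alone made the splits of the members 79 and 20 at 48 h and 114 and 9 at 88 h. Those of all genes became 15.1% and 7.77% at 48 h and 27.8% and 4.52% at 88 h. Within quartiles of level the upward share at 88 h was not larger in single-exon than in multi-exon genes. In the lowest quartile of level (CPM) it was 29.4% in single-exon and 32.2% in multi-exon genes, and in the second 11.3% and 14.9%. In quartiles 3 and 4 no member had an upward 2-fold difference, against 6.82% and 4.74% of multi-exon genes. An upward difference means that the level with acetate relative to none was higher in low than in high nitrogen.

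The highest such difference was that of mRNA_1113 at 48 h, at 5.14 on the log2 scale (adjusted p = 1.85e-11, SE 0.40). Its level with and without acetate was 1883 ± 29.7 and 1890 ± 214 CPM in low nitrogen, while it fell in high nitrogen. The lowest at 48 h was that of mRNA_3788, at −6.18 (adjusted p = 4.27e-12, SE 0.45). At 64 h the extremes were mRNA_1684 at 5.27 and mRNA_8354 at −3.22. The latter was −1.87 (adjusted p = 0.0061) without replicate 1 of low nitrogen without acetate, which had 41.8 CPM where the other 2 libraries had 8.24 and 6.51 CPM. At 88 h the extremes were mRNA_1684 at 4.25 and mRNA_2629 at −3.68.

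With time, more tested members rose than fell in each of the 4 media. From 48 to 88 h in low nitrogen with acetate 80 of 331 went up at least 2-fold and 31 went down as far, 24.2% and 9.37%, against 15.6% and 14.0% of all tested genes. The median log2 fold change was 0.34 over the tested members and 0.04 over all tested genes. In low nitrogen without acetate 64 were higher and 38 lower, 19.3% and 11.5%, against 12.8% and 15.5%. In high nitrogen without acetate it was 50 and 39, 15.1% and 11.8%, against 10.7% and 7.20%. In high nitrogen with acetate it was 56 and 26, 16.9% and 7.85%, against 11.0% and 9.55%.

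Library totals alone kept the higher calls in the majority in all 4 media, at 61 and 42 in low nitrogen with acetate, 51 and 46 without, 45 and 34 in high nitrogen with acetate and 64 and 32 without. All genes turned to more lower than higher calls in 3 media, with 10.2% higher and 20.8% lower in low nitrogen with acetate, 9.27% and 20.1% without, and 9.27% and 12.3% in high nitrogen with acetate. In high nitrogen without acetate they had 14.6% higher and 5.56% lower. The median of the members fell from 0.34 to 0.04 in low nitrogen with acetate and from 0.23 to 0.03 without it. In high nitrogen it changed from 0.13 to −0.01 with acetate and from 0.19 to 0.38 without. In low nitrogen genes with 2 exons had shares like those of single-exon genes, with 25.3% higher and 10.1% lower with acetate.

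mRNA_1303 (protein 9671, scaffold 10, 870769 to 871645, minus strand) had the highest log2 fold change in 3 of the 4 media, with large scatter. In low nitrogen without acetate it had 96.5, 185 and 26.9 CPM at 88 h and 2.02, 3.03 and 3.14 CPM at 48 h (log2 fold change 5.23, adjusted p = 4.28e-05, SE 1.02). Replicate 2 was the highest and replicate 3 the lowest of the 88 h libraries in that medium, in low nitrogen with acetate (92.5, 145 and 27.2 CPM) and in high nitrogen without it (57.8, 133 and 17.8 CPM). The log2 fold change was 4.47 without replicate 2 in the first of these media, and in high nitrogen without acetate it was 5.00 with and 4.13 without it.

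mRNA_2511 (protein 10879, scaffold 14, 325473 to 326373, plus strand) rose more evenly in low nitrogen without acetate, to 21.3, 21.2 and 25.4 CPM from 1.76, 1.59 and 1.24 CPM (log2 fold change 3.88, adjusted p = 1.49e-14, SE 0.24). In low nitrogen with acetate mRNA_4245 rose to 24.7, 25.1 and 19.7 CPM from 1.45, 1.88 and 1.61 CPM (log2 fold change 3.81, adjusted p = 4.1e-15, SE 0.22). In high nitrogen mRNA_6310 rose with acetate to 34.2, 22.1 and 15.1 CPM from 0.439, 0.221 and 0.445 CPM, and without it to 14.5, 23.4 and 15.8 CPM from 0.579, 0.867 and 1.57 CPM. None of these groups overlap.

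Of the falls with time, that of mRNA_6192 was the deepest in both media without acetate. It went from 23.6, 26.0 and 22.1 CPM to 0.788, 0.480 and 0.604 CPM in low nitrogen (log2 fold change −5.35, adjusted p = 5.69e-14, SE 0.35) and by −4.59 in high nitrogen. In low nitrogen with acetate mRNA_2802 fell from 26.0 ± 1.84 to 3.68 ± 0.235 CPM and mRNA_8305 from 34.0 ± 1.95 to 5.06 ± 1.22 CPM. In high nitrogen with acetate mRNA_8354 fell from 207 ± 118 to 38.9 ± 1.16 CPM and mRNA_3828 from 15.8 ± 3.14 to 3.11 ± 0.437 CPM. mRNA_2802 shares 349 bp with mRNA_2801 on the same strand, which lay at 1.01 CPM on average.

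Calls of any size gave another picture than 2-fold calls. At adjusted p below 0.05 alone, the called share of the tested members was smaller than that of all tested genes in 17 of the 19 comparisons. With acetate in low nitrogen 148, 103 and 141 members were called at 48, 64 and 88 h, or 44.7%, 31.1% and 42.6%, against 51.1%, 41.9% and 47.5% of all genes. In high nitrogen 225, 201 and 228 were called, or 68.0%, 60.7% and 68.9%, against 68.9%, 66.9% and 75.6%. For low against high nitrogen with acetate 193, 249 and 257 were called, or 58.3%, 75.2% and 77.6%, against 70.2%, 76.0% and 77.3%. Without acetate it was 162, 215 and 223, or 48.9%, 65.0% and 67.4%, against 59.0%, 73.8% and 77.5%. With time 213 and 217 were called in low nitrogen without and with acetate, or 64.4% and 65.6%, against 73.6% and 74.5%. In high nitrogen it was 221 and 188, or 66.8% and 56.8%, against 65.4% and 67.2%. The acetate effect differed between the nitrogen media in 171, 152 and 169 members at 48, 64 and 88 h, or 51.7%, 45.9% and 51.1%, against 56.8%, 56.0% and 63.0% of all genes. Single-exon genes had fewer counts per gene, and the part of depth in these shares was not tested. The shares by quartile of level given next are of 2-fold calls only.

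Since 204 of the 331 tested members were in the lowest quartile of level, the comparisons were also set out by quartile. In the lowest quartile 33.3% of single-exon and 19.7% of multi-exon genes were at least 2-fold lower with acetate in high nitrogen at 48 h. At 64 h the shares were 21.6% and 21.7%, and at 88 h 31.4% and 37.6%, so single-exon genes had no larger share within that quartile at the later times. In quartiles 2 and 3 they were 7.55% and 9.24%, and 11.8% and 6.32%, at 48 h. In the highest quartile 8 of 23 single-exon genes were lower at 48 h, or 34.8%, against 11.2% of multi-exon genes. At 64 h the shares in quartiles 2 to 4 were 9.43% and 8.74%, 3.92% and 3.91%, and 17.4% (4 of 23) and 3.80%. At 88 h they were 17.0% and 14.0%, 5.88% and 4.46%, and 4.35% (1 of 23) and 2.32%.

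For nitrogen with acetate at 64 h the single-exon share of higher calls was the larger in all 4 quartiles. At least 2-fold higher in low nitrogen were 40.7% of single-exon and 29.5% of multi-exon genes in the lowest quartile. In the second quartile the shares were 15.1% and 12.5%, in the third 17.6% and 9.13%, and in the highest 56.5% (13 of 23) and 17.2%. At 88 h with acetate the shares were 42.6% and 34.9% in the lowest quartile, 9.80% and 7.27% in the third, and 39.1% (9 of 23) and 10.4% in the highest. In the second quartile the order was turned, with 11.3% and 13.9% higher and medians of −0.24 and −0.05. For 88 against 48 h in low nitrogen with acetate the lowest quartile gave 28.4% and 28.5% higher. The median log2 fold changes there were 0.44 and 0.39, while in quartiles 2 and 3 the single-exon medians of 0.17 and 0.24 stood beside −0.18 and −0.14 in multi-exon genes.

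**Figure D5:**
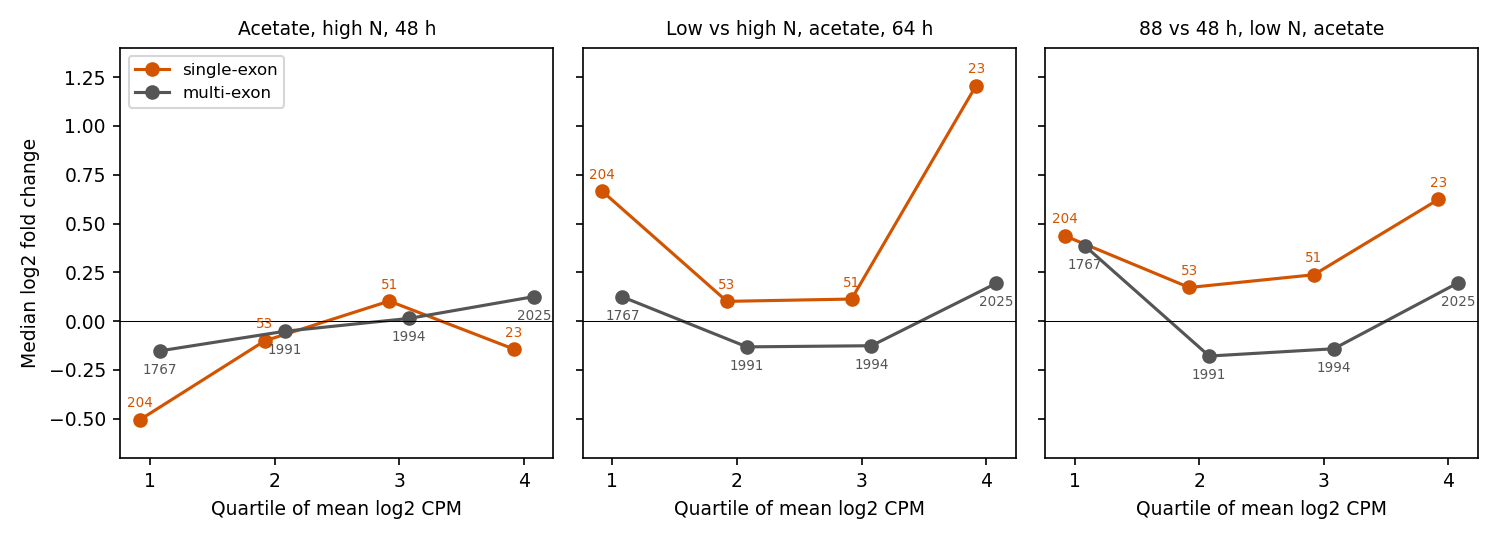
Median log2 fold change of single-exon and multi-exon genes by quartile of mean log2 CPM, for 3 comparisons. Numbers beside the points are genes tested; single-exon genes lie above multi-exon genes in all 4 quartiles of low against high nitrogen with acetate at 64 h, and in the lowest quartile the medians of 88 against 48 h are 0.44 and 0.39.

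The nitrogen comparison was also set out by length and annotation. In the comparison with acetate at 64 h, at least 2-fold higher were 40.2% of single-exon genes with a coding length up to 600 bp, against 17.5% of multi-exon genes of that length. Between 600 and 1200 bp the shares were 28.4% and 18.8%, and between 1200 and 2400 bp 35.9% and 16.6%. Among genes with no exon overlap they were 35.5% of 203 single-exon and 16.9% of 5951 multi-exon genes. Among genes with an annotated UTR they were 34.9% and 16.4%.

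Some members changed the same way at every time. At least 2-fold lower with acetate in high nitrogen at all 3 times were 20 tested members, or 6.04%, against 2.38% of all tested genes. These included mRNA_1684, mRNA_1774 and mRNA_4245, and 8 members were higher at all 3 times, 2.42% against 1.91% of all genes. At least 2-fold higher in low nitrogen with acetate at all 3 times were 33 members, or 9.97%, against 5.24%, and 19 were lower, 5.74% against 4.65%. Over all 6 nitrogen comparisons 8 members were higher each time and 8 lower each time, 2.42% in both cases, against 2.50% and 1.54% of all genes. The 8 higher ones were mRNA_1113, mRNA_1684, mRNA_1685, mRNA_2735, mRNA_3895, mRNA_5775, mRNA_6320 and mRNA_7008. The 8 lower ones were mRNA_355, mRNA_461, mRNA_1415, mRNA_1505, mRNA_1597, mRNA_2629, mRNA_4942 and mRNA_8008. These comparisons share groups with those of acetate and time, so the counts are not independent of each other. Without a called change in any of the 16 pairwise comparisons were 3 tested members, or 0.906%, and 10 of all tested genes, or 0.120%.

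The group in which a member was highest varied widely. Low nitrogen without acetate at 88 h was the highest group for 60 of 331 tested members and high nitrogen without acetate at 88 h for 46. These are 18.1% and 13.9%, close to 15.6% and 10.6% of multi-exon genes. The lowest group was most often high nitrogen with acetate, for 68 members at 64 h and for 54 at 48 h. Among multi-exon genes these groups were the lowest for 10.0% and 11.2%, against 20.5% and 16.3% of tested single-exon genes.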

How the data were processed

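RNA from 36 cultures of R. toruloides IFO0880 was sequenced from stranded libraries (Watchmaker kit, per the labels' protocols). The authors deposited whole-number counts per mRNA. The sample labels describe them as raw but also as scaled to library size; the values are whole and their totals differ between libraries, so they were used as raw counts. Per the submitters' processing notes, Trimmomatic 0.39, FastQC 0.11.9, MultiQC 1.9, STAR 2.7.10a and featureCounts with Subread 2.0.4 were used. The strand setting and the treatment of reads with several matches are not given in the sources used here. Exons, coding segments and positions came from the gene catalogue deposited with the counts.

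The members, gene lists and tests were chosen with earlier results of these data known. All 36 libraries, at 10173719 to 63311529 counts, entered 1 fit with 12 group means in edgeR 4.0.16 under R 4.3.3, with TMM scaling, filterByExpr (8314 genes tested, 176 not) and quasi-likelihood tests. P-values were adjusted by Benjamini-Hochberg over all tested genes in each of 16 pairwise comparisons and 3 interactions. A call needed adjusted p below 0.05, and a 2-fold call also a log2 fold change of at least 1 in size. The SE given is the log2 fold change divided by the square root of F. Log2 CPM used a prior count of 2. The scripts were tested on simulated data.

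Genes were named by rule: per pairwise comparison the 2 highest and 2 lowest log2 fold changes among called members without overlap between libraries whose higher group averaged 10 CPM or more; per interaction the highest and the lowest; the 5 highest levels per kb; the 2 widest and 2 narrowest ranges; the 3 members and 3 other mRNAs nearest to the length minimum; and the longest runs of neighbours. Lists of members called at every time or in every nitrogen comparison, and the overlapping neighbours, were named in addition after their values were seen. Alternatives were DESeq2 1.42.0, RLE scaling, library totals, 2 other count filters, thinning to the smallest total, a replicate block, fits to only the groups compared, each library left out and, added after seeing the data, the 4 libraries that stood apart left out together. No member sequence was used.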

Additional observations from a re-analysis of the deposited data

Results flagged for a closer look

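Gene by gene, the difference of the acetate effect between low and high nitrogen was itself tested (edgeR interaction, adjusted p below 0.05). It was called for 171 of 331 tested members at 48 h, 152 at 64 h and 169 at 88 h, or 51.7%, 45.9% and 51.1%. These shares lay below the 56.8%, 56.0% and 63.0% of all tested genes. The class as a whole was not tested. The values that follow are log2 differences of the acetate effect, low minus high nitrogen.

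At 48 h the difference was 5.14 for mRNA_1113, 2.27 for mRNA_6192, 1.96 for mRNA_2467, 1.46 for mRNA_4359 and 1.17 for mRNA_5381. It was −6.18 for mRNA_3788 and −3.97 for mRNA_8354 at that time. At 64 h it was 5.27 for mRNA_1684 and 3.44 for mRNA_1113. At the same time it was −3.22 for mRNA_8354, −3.07 for mRNA_1597, −2.22 for mRNA_4355 and −2.10 for mRNA_3788. At 88 h it was 4.25 for mRNA_1684, 3.27 for mRNA_4668, 2.53 for mRNA_1774, 1.12 for mRNA_6714 and 0.89 for mRNA_8008. It was −3.68 for mRNA_2629, −2.31 for mRNA_4355 and −1.44 for mRNA_1912. Of these genes mRNA_3788, mRNA_8354, mRNA_6192, mRNA_1597 and mRNA_2629 overlap a catalogue neighbour. Groups of 3 libraries are too small for a test of single outlying libraries.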

How the results depend on the processing

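The number of tested members called at adjusted p below 0.05 stayed within 1.5 times its value under each alternative except the stricter filter, 10 CPM or more in 3 or more libraries, which leaves fewer genes. Under that filter it was 141 for acetate in high nitrogen at 48 h, and 159 and 164 for nitrogen with acetate at 64 and 88 h. The ratio to the value given was 0.982 to 1.03 with DESeq2, 0.819 to 1.34 in fits to only the groups compared, 0.811 to 0.949 after thinning, and 0.984 to 1.19 without the 4 libraries that stood apart. The same filter changed the single-exon minus multi-exon difference of median log2 fold changes. For acetate in high nitrogen it went from −0.276 to −0.142 at 48 h and from −0.200 to −0.0498 at 88 h. In low nitrogen at 88 h it went from 0.00674 to −0.0635. For nitrogen with acetate it went from 0.108 to 0.0438 at 48 h and from 0.488 to 0.239 at 64 h. At 88 h it went from 0.409 to 0.143, and without acetate at 64 h from 0.202 to 0.0105. For time in low nitrogen without acetate it went from 0.239 to 0.277. For the interaction it went from 0.205 to 0.0700 at 48 h and from 0.242 to 0.116 at 88 h. Thinning gave −0.0844 for acetate in low nitrogen at 48 h, against −0.127, and 0.359 for nitrogen with acetate at 88 h, against 0.409. The cause was not tested. Without the 4 libraries that stood apart, nitrogen with acetate at 48 h gave 0.155. With each library left out in turn the difference ranged from −0.0127 to 0.0396 for acetate in low nitrogen at 88 h, from −0.0194 to 0.0803 and from 0.119 to 0.155 for nitrogen at 48 h without and with acetate, from 0.202 to 0.264 and from 0.301 to 0.344 for time in low nitrogen without and with acetate, and from 0.134 to 0.253 for the interaction at 48 h. The mean share of counts on single-exon genes, 1.27%, was 1.17% without mRNA_1113 and 0.965% without overlapping genes. Without mRNA_1113 the nitrogen comparisons with every low-nitrogen library above every high-nitrogen one numbered 2. The log2 ratio of the median level per kb to that of multi-exon genes, −2.39, was −2.14 per kb of coding length, −2.71 with no minimum of coding length and −2.10 without overlapping genes. No named gene changed sign, and mRNA_504 lost its call with acetate in low nitrogen at 64 h when replicate 1 was left out and when only the groups compared were fitted (1.38, adjusted p = 0.0593 with edgeR).

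In 0 of 16 comparisons did all 3 correlations between the deviations of libraries with the same replicate number exceed 0.1. They ranged from −0.366 to 0.226. These comparisons set media against each other at the same time, or 88 h against 48 h in the same medium. Libraries of 64 h were not checked against those of other times. Replicate 2 of high nitrogen without acetate stood apart at both 64 h and 88 h, so shared deviation is not excluded there. With a replicate block the called counts were 0.994 to 1.05 times those without, for example 108 against 103 for acetate in low nitrogen at 64 h.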
